A study of Drosophila melanogaster with 12 samples.

Results

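The genes described here are 9 genes of ovarian follicle cells, Fas3, Fas2, cas, eya, tj, kay, slbo, ct and ttk, out of 17023 features counted in ovaries of Drosophila melanogaster. They were chosen by name, as follicle cell fate factors and adhesion genes, and matched to their FlyBase identifiers. Of these, cas, Fas3 and eya were taken as genes of the early or stem stage, slbo, ct and ttk as genes of later follicle cells, and Fas2, tj and kay as neither. All 9 passed the filter on low counts, as did 10105 features in all.

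Poly(A) mRNA was sequenced from ovaries dissected 1 to 3 days after eclosion, in 5 sets of 2 libraries. In 3 sets the genotype is a germline knockdown (GKD): of SETDB1, the H3K9 methyltransferase that egg encodes, of wde, which encodes its cofactor, or of Nup154, a nuclear pore gene used in the series as a developmental control. The other 4 libraries share the genotype label young control. The titles of one pair name NGVP16 and those of the other name virgin flies, with Dcr in the title of virgin 1. The sources used here do not name the germline driver or the knockdown constructs. The labels do not say whether the libraries of a set are separate flies, cultures or crosses. The p-values therefore speak only to the spread between libraries, which may be technical. The adult pair of the series was left out.

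Follicle cells form the somatic epithelium around each egg chamber. They descend from stem cells in the germarium, where precursors become polar, stalk or main body cells. After a mitotic phase the main body cells pass, on a Notch signal, to endocycles, and some of them then migrate as border cells or build the eggshell. Cas and Eya mark and divide the early lineages, Fas3 marks membranes of immature cells and later the polar cells, and Fas2 lies between the cells of the epithelium until it is lowered. Slbo is the transcription factor that gives border cells their ability to migrate. Ttk acts in the late follicle cells that make the eggshell. Cut, the protein of ct, is also known in the mitotic cells of young egg chambers, from which Notch signalling removes it, before it returns late.

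The targeted genes were measured in whole ovaries, somatic cells included. egg was at 31.8 and 37.8 CPM (counts per 1e6 of the library size after TMM scaling) in SETDB1 GKD and at 34.3 and 70.8 in the NGVP16 pair, a log2 change of -0.60 ± 0.32 (± SE, adjusted p = 0.206 by edgeR). wde was at 74.4 and 92.9 CPM in wde GKD, between the 43.1 and 142.9 of the NGVP16 pair, a change of -0.15 ± 0.46 (adjusted p = 0.81 by edgeR). Nup154 was at 78.2 and 73.8 CPM in Nup154 GKD against 144 and 224, and was called lower at -1.28 ± 0.31 (adjusted p = 0.0121 by edgeR). Nup154 was also called lower in wde GKD (-1.02 ± 0.31, adjusted p = 0.0308 by edgeR). In SETDB1 GKD it was at 102.8 and 98.6 CPM, a change of -0.87 ± 0.30 (adjusted p = 0.0678 by edgeR). Against NGVP16 the test thus called a lower level of the target in Nup154 GKD and not in SETDB1 GKD and wde GKD. The targets were not tested against the virgin pair. That pair held egg at 64.5 and 75.5 CPM, above both SETDB1 GKD libraries, and Nup154 at 229.4 and 286.1, above both Nup154 GKD libraries. Its wde levels overlapped those of wde GKD. In SETDB1 GKD wde was at 234.8 and 192.6 CPM, above every young control library (1.20 ± 0.47 against NGVP16, adjusted p = 0.0933 by edgeR). The lower level of Nup154 was not particular to its own knockdown.

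The libraries held 7351948 to 20162235 counts. All levels are CPM. The summed shares of somatic markers other than those of follicle cells were higher in the knockdowns. The 14 muscle sheath genes took 2.34% to 3.03% of the counts there and 0.301% to 0.503% in the young controls, and 9 hemocyte genes took 0.14% to 0.38% against 0.0139% to 0.0265%. The 9 germline genes took 0.139% to 0.199% in the knockdowns and 0.422% to 0.879% in the young controls, and 14 eggshell genes of late follicle cells took 0.00627% to 0.157% and 0.328% to 0.903%. The 10 genes of escort and niche cells took 0.137% to 0.359% in the knockdowns and 0.0236% to 0.0649% in the young controls. The shares were also higher for 9 neuronal genes, at 0.00797% to 0.0148% against 0.00133% to 0.00424%, for 4 tracheal genes, at 0.0173% to 0.0247% against 0.00256% to 0.00419%, and for 6 genes of the reproductive tract, at 0.0128% to 0.0276% against 0.0033% to 0.00985%. Of the neuronal genes VGlut, Gad1 and Rdl were at 0 counts in both Nup154 GKD libraries and both virgin libraries. The tract genes Send1, Send2 and lz were at 0 in both NGVP16 libraries, Send2 in both SETDB1 GKD libraries and lz in both virgin libraries. The hemocyte gene He was at 0 in both virgin libraries and the eggshell gene Cp16 in both wde GKD libraries. By the test used below, against NGVP16 13, 14 and 14 of 14 muscle sheath genes, 9 of 9 hemocyte genes in each and 7, 6 and 7 of 9 tested escort and niche genes were called higher in SETDB1, wde and Nup154 GKD. Also called higher were 4, 2 and 2 of 9 neuronal genes, 1, 3 and 1 of 4 tracheal genes and 2, 5 and 5 of 6 tract genes. Called lower were 4, 5 and 5 of 9 germline genes, 13, 9 and 8 of 14 eggshell genes and 1 neuronal gene in Nup154 GKD. Of all features, 14.6%, 21.3% and 20.8% were called higher and 9.51%, 14.2% and 16.1% lower. The neuronal genes called higher against NGVP16, 44.4%, 22.2% and 22.2% of their list, were near the share of all features in wde and Nup154 GKD. Against the virgin pair 88.9%, 100% and 55.6% of that list were called higher, beside 21.8%, 26.4% and 24.4% of all features. The part of these cells in the values below was not tested. In these bulk libraries more cells of a type and more RNA per cell cannot be told apart.

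In each of the 3 knockdowns the same 6 of the 9 genes were higher than in the NGVP16 pair: the early genes Fas3, cas and eya, the later gene ct, and Fas2 and kay. No gene of the 9 was called lower, and slbo, ttk and tj passed in no direction. A gene was called at an adjusted p under 0.05 in the quasi-likelihood F test of edgeR, adjusted over all 10105 features by Benjamini-Hochberg. Of all features, 14.6%, 21.3% and 20.8% were called higher in SETDB1, wde and Nup154 GKD, and 11.1% in all 3. The shares called lower were 9.51%, 14.2% and 16.1%. For these 6 genes all 6 knockdown libraries lay above all 4 young control libraries, which was so for 19.9% of all features.

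**Figure D1:**
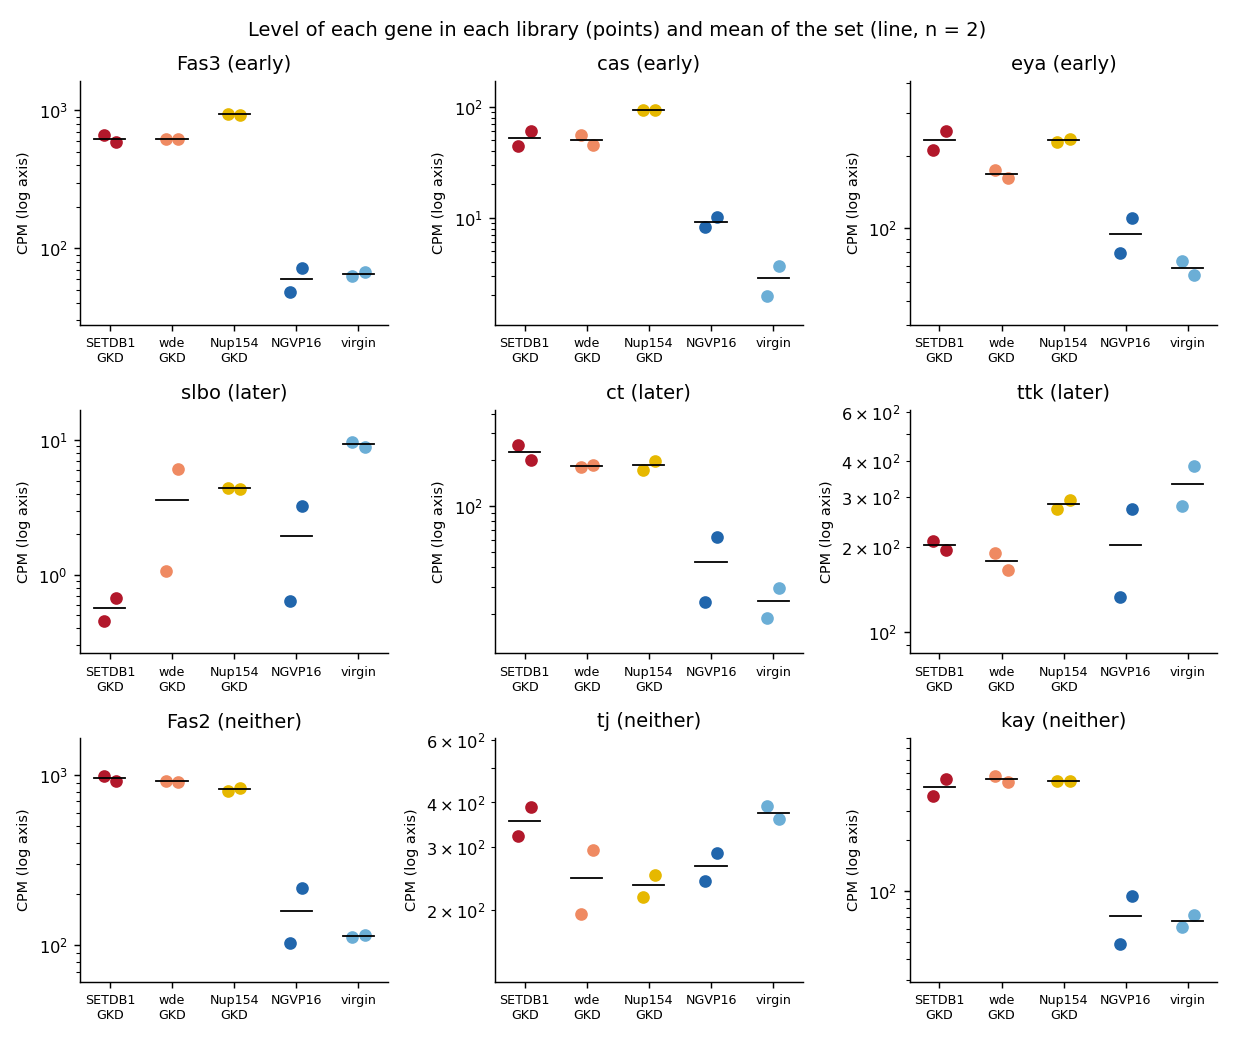
CPM on a log axis in each of the 10 libraries (points) with the mean of each set (line, n = 2), 1 panel per gene, with the axis range set for each gene. Fas3, cas, eya, ct, Fas2 and kay lie higher in all 6 knockdown libraries than in all 4 young control libraries, while slbo, ttk and tj overlap between the groups.

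Fas3 (FBgn0000636, chromosome 2L, 18320102 to 18393441, plus strand, coordinates of dm6) encodes an adhesion protein of the immunoglobulin family that binds its own kind on neighbouring cells. It was at 659 and 586 CPM in SETDB1 GKD. It was at 618 and 619 in the wde pair and at 939 and 934 in Nup154 GKD. Its levels were 48.5 and 71.5 CPM in the NGVP16 pair and 63.5 and 67.0 in the virgin pair. The lowest knockdown library thus stood 8.21 times above the highest control library, the widest gap among the 9 genes. Against NGVP16 the log2 fold changes of Fas3 were 3.37 ± 0.29, 3.36 ± 0.29 and 3.96 ± 0.30 in SETDB1, wde and Nup154 GKD, the order kept below (± SE, adjusted p = 0.000429, 0.000286 and 0.000108). Fas3 stayed called in all 3 knockdowns under every alternative run, with the smallest changes, 2.65, 2.56 and 3.01, when the length trend of the libraries was removed.

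The zinc finger gene cas (castor, FBgn0004878, chromosome 3R, 5712975 to 5716805, minus strand) stood higher in every knockdown library than in every control library. In SETDB1 GKD its libraries held 44.5 and 60.2 CPM, in wde GKD 55.2 and 45.7, and in Nup154 GKD 93.7 and 93.9. The controls held 8.26 and 10.1 CPM in the NGVP16 pair and 1.97 and 3.7 in the virgin pair, on 26 to 125 counts per library. The control pairs did not overlap, as for 20.2% of all features with virgin lower, and cas was the only one of the 9 genes called between them, at -1.75 ± 0.34 in virgin against NGVP16 (adjusted p = 0.0449). Lower calls made up 1.29% of all features in that comparison. The call ended without either virgin library (adjusted p = 0.222 without virgin 1 and 0.0631 without virgin 2), with ribosomal protein scaling (0.313) and in a fit of only these 2 sets (0.412; lowest over the alternatives 0.000133). Against NGVP16, cas rose by 2.51 ± 0.32, 2.46 ± 0.32 and 3.35 ± 0.33 on the log2 scale (adjusted p = 0.00128, 0.00104 and 0.00026). Against the virgin pair, whose cas level was lower, the changes were 4.26, 4.21 and 5.10.

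The remaining early gene, eya (FBgn0000320, chromosome 2L, 6527447 to 6546976, minus strand), encodes a phosphatase and transcriptional cofactor that polar cells lack. It had 211 and 253 CPM in the SETDB1 GKD pair, 174 and 162 in the wde GKD pair and 228 and 235 in the Nup154 GKD pair. The NGVP16 libraries had 79.3 and 111 CPM and the virgin libraries 73.2 and 64.1. The groups did not overlap, but the gap was narrower than for Fas3 or cas. The changes against NGVP16 were 1.29 ± 0.26, 0.82 ± 0.25 and 1.28 ± 0.26 (adjusted p = 0.00838, 0.0347 and 0.00529). The call of eya in wde GKD ended under 10 of its 14 alternatives, among them without NGVP16 1 (0.48, adjusted p = 0.12), without wde GKD 1 (0.77, adjusted p = 0.16) or 2 (0.86, adjusted p = 0.102) and with the length trend removed (0.36, adjusted p = 0.141; range over the alternatives 0.00254 to 0.239). In SETDB1 GKD it ended under 3 of 14 alternatives (range of adjusted p 2.19e-06 to 0.186), among them without SETDB1 GKD 2 (1.05). In Nup154 GKD it ended under 2 of 14 (range 3.33e-06 to 0.177).

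The 3 later genes did not move together. ct (cut, FBgn0004198, chromosome X, 7608428 to 7678859, plus strand), which encodes a homeodomain protein, was at 249 and 198 CPM in the SETDB1 GKD pair, 181 and 185 in the wde GKD pair and 170 and 197 in the Nup154 GKD pair. Its control levels were 23.9 and 63.1 CPM in the NGVP16 pair and 18.8 and 29.1 in the virgin pair, so the NGVP16 libraries differed 2.64-fold while all stayed under the knockdowns. ct rose by 2.36 ± 0.44, 2.07 ± 0.44 and 2.07 ± 0.44 (adjusted p = 0.00655, 0.00788 and 0.00692). Without NGVP16 1 its changes were 1.75, 1.41 and 1.39, and without NGVP16 2 they were 3.23, 2.93 and 2.95, with all 6 values still called. With the length trend of the libraries removed the changes were 1.35, 0.99 and 0.84, also called. The calls of ct ended under 2, 1 and 2 of 14 alternatives, with adjusted p up to 0.117, 0.081 and 0.141.

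slbo (slow border cells, FBgn0005638, chromosome 2R, 24331522 to 24334307, minus strand), the C/EBP factor of border cells, was rare. Its counts were 7 and 7 in the SETDB1 GKD pair, 11 and 62 in the wde GKD pair, 50 and 50 in the Nup154 GKD pair, 5 and 40 in the NGVP16 pair and 186 and 63 in the virgin pair. These are 0.458 and 0.669 CPM, 1.06 and 6.1, 4.44 and 4.33, 0.635 and 3.22, and 9.65 and 8.96. The virgin libraries were the 2 highest, the SETDB1 GKD libraries were among the 3 lowest with NGVP16 1, and the wde GKD pair differed 5.73-fold. The exact Poisson intervals at 95% of the wde GKD libraries, 0.531 to 1.91 and 4.68 to 7.82 CPM, did not overlap, and they cover counting error only. Against NGVP16 slbo was at -1.80 ± 0.97, 0.86 ± 0.91 and 1.16 ± 0.91 in the 3 knockdowns (adjusted p = 0.206, 0.474 and 0.342). Against the virgin pair it was called lower in SETDB1 GKD (-4.03 ± 1.02, adjusted p = 0.0161) and not in wde GKD (-1.37, adjusted p = 0.237) or Nup154 GKD (-1.08, adjusted p = 0.353). Lower calls made up 13.2% of all features in SETDB1 GKD against the virgin pair. The slbo call ended without SETDB1 GKD 1 (adjusted p = 0.1), SETDB1 GKD 2 (0.0636) or virgin 1 (0.0607) and with ribosomal protein scaling (0.0757), and the lowest of its adjusted p over these checks was 0.00612.

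ttk (tramtrack, FBgn0003870, chromosome 3R, 31713867 to 31735392, plus strand), which encodes BTB zinc finger repressors, did not separate the groups. It was at 209 and 194 CPM in the SETDB1 GKD pair, 190 and 165 in the wde GKD pair, 272 and 293 in the Nup154 GKD pair, 133 and 271 in the NGVP16 pair and 279 and 386 in the virgin pair. Both extremes of the 10 libraries were thus young controls. The ratio to NGVP16 was 1.00 in SETDB1 GKD (adjusted p = 1), and the log2 changes were -0.19 ± 0.35 in wde GKD and 0.48 ± 0.35 in Nup154 GKD (adjusted p = 0.692 and 0.297). Without NGVP16 1 ttk was at -0.50, -0.73 and -0.10, called in wde GKD (adjusted p = 0.0281), and without NGVP16 2 it was at 0.61, 0.42 and 1.09, called in Nup154 GKD (adjusted p = 0.00684). With the length trend removed ttk was called lower in all 3, at -0.73, -1.004 and -0.48 (adjusted p = 0.00764, 0.00122 and 0.0369, ranges over the alternatives 0.00764 to 0.994, 0.00122 to 0.888 and 0.00684 to 0.76).

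Set against each other, the early genes had a mean log2 change of 2.39, 2.21 and 2.87 in SETDB1, wde and Nup154 GKD against NGVP16, and the later genes 0.19, 0.91 and 1.24. All 3 early genes were called higher in each knockdown and 1 of 3 later genes, ct, was. The difference of the means was 2.20, 1.30 and 1.63, and 3.60, 2.69 and 3.02 against the virgin pair. Without slbo, which rests on few counts, it was 1.21, 1.27 and 1.59 against NGVP16 and 1.84, 1.90 and 2.21 against the virgin pair, so SETDB1 GKD went from the largest difference to the smallest. These are descriptions with no test, since the genes were grouped by name and number 3 each. Without NGVP16 2 the difference was 1.42, 0.51 and 0.84. Within a library the difference does not depend on scaling. The mean log2 CPM of the early genes minus that of the later genes was 1.54 to 2.81 in the 6 knockdown libraries, 1.33 and 0.18 in the NGVP16 pair, and -0.82 and -0.89 in the virgin pair. The groups did not overlap, with NGVP16 1 (1.33) nearest to wde GKD 2 (1.54). With ct and ttk alone as later genes, slbo left out, the values were -0.32 to 0.34 in the knockdowns and -0.83 to -2.08 in the controls.

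**Figure D2:**
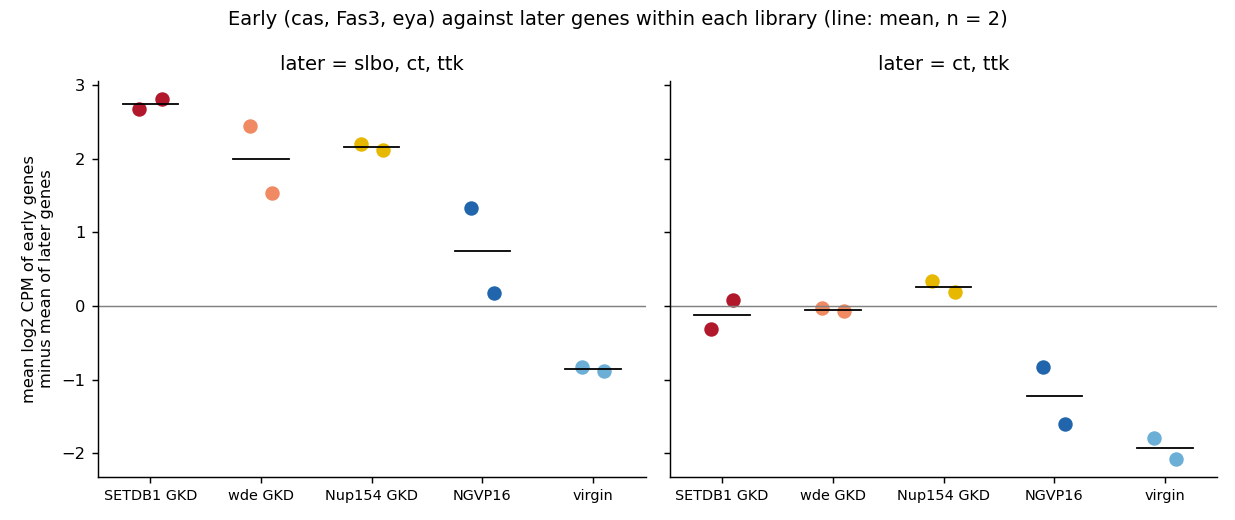
Mean log2 CPM of cas, Fas3 and eya minus the mean of the later genes in each library (points) with the mean of the set (line, n = 2), with slbo among the later genes on the left and without it on the right. The 6 knockdown libraries lie at 1.54 to 2.81 on the left and at -0.32 to 0.34 on the right, above the 4 control libraries in both.

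The other adhesion gene, Fas2 (FBgn0000635, chromosome X, 4132887 to 4206093, minus strand), codes for a protein of the NCAM kind. It was at 984 and 926 CPM in SETDB1 GKD, at 927 and 913 in wde GKD and at 809 and 841 in Nup154 GKD. The NGVP16 libraries held 103 and 216 CPM and the virgin libraries 112 and 115. Fas2 rose by 2.58 ± 0.36, 2.53 ± 0.36 and 2.37 ± 0.36 (adjusted p = 0.00179, 0.00152 and 0.0016). Its changes were 1.89, 1.75 and 1.44 with the length trend removed, without NGVP16 1 they were 2.07, 1.96 and 1.77, and without NGVP16 2 they were 3.22, 3.16 and 3.01, all called. The call of Fas2 ended under 2 of 14 alternatives in SETDB1 GKD (adjusted p up to 0.0587) and 1 of 14 in Nup154 GKD (up to 0.06). Fas2 is also a protein of motor axons, and the summed share of the neuronal markers was higher in the knockdowns. Against NGVP16, 4, 2 and 2 of the 9 markers were called higher, near the share of all features in wde and Nup154 GKD. Against the virgin pair 8, 9 and 5 were, which is 88.9%, 100% and 55.6%, beside 21.8%, 26.4% and 24.4% of all features. The part of neurons in the level of Fas2 was not tested.

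kay (kayak, FBgn0001297, chromosome 3R, 29765995 to 29794113, plus strand) encodes the Fos subunit of the AP-1 transcription factor, which acts below the JNK pathway. Its levels were 364 and 459 CPM in the SETDB1 GKD pair, 479 and 440 in the wde GKD pair and 451 and 450 in the Nup154 GKD pair, against 49.1 and 93.2 in the NGVP16 pair and 61.5 and 72.4 in the virgin pair. The 3 knockdowns overlapped one another. Against NGVP16 kay was up by 2.53 ± 0.34, 2.69 ± 0.34 and 2.66 ± 0.34 (adjusted p = 0.00146, 0.000873 and 0.000724). The changes of kay were 1.78, 1.83 and 1.65 with the length trend removed, also called. Its call in SETDB1 GKD ended under 2 of 14 alternatives (adjusted p up to 0.0616).

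tj (traffic jam, FBgn0000964, chromosome 2L, 19464267 to 19467758, plus strand), a large Maf factor found in the somatic cells of the gonad, follicle and escort cells included, overlapped between the groups. It had 322 and 389 CPM in the SETDB1 GKD pair, 195 and 294 in the wde GKD pair, 217 and 251 in the Nup154 GKD pair, 241 and 289 in the NGVP16 pair and 391 and 359 in the virgin pair. Its changes against NGVP16 were 0.42 ± 0.28, -0.11 ± 0.28 and -0.18 ± 0.28 (adjusted p = 0.29, 0.764 and 0.641). With the length trend removed tj was called lower in Nup154 GKD (-0.73, adjusted p = 0.0388, range over the alternatives 0.0388 to 0.979). Taken as a ratio to tj in the same library, Fas3 was at 1.51 to 4.33 in the knockdowns and 0.163 to 0.247 in the young controls, and kay at 1.13 to 2.46 and 0.157 to 0.323. eya was at 0.55 to 1.05 times tj against 0.179 to 0.384, and cas at 0.138 to 0.432 against 0.00505 to 0.0348. ct was at 0.51 to 0.927 times tj against 0.0482 to 0.218, and Fas2 at 2.38 to 4.75 against 0.286 to 0.749. Fas3, kay, eya, cas, ct and Fas2 thus separated the groups also without a scaling of the libraries. The ratio of ttk to tj overlapped, at 0.499 to 1.25 and 0.551 to 1.07, as did that of slbo, at 0.00142 to 0.0207 and 0.00264 to 0.025.

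The virgin pair as control gave the same 6 genes as higher in every knockdown, with changes of 1.29 for eya in wde GKD to 5.10 for cas in Nup154 GKD. Of all features 21.8%, 26.4% and 24.4% were called higher in SETDB1, wde and Nup154 GKD against the virgin pair, and 9.35% were so in all 3 knockdowns against both control pairs. The 6 calls stood in every left-out fit and scaling that was run with the virgin pair. ttk was at -0.72, -0.91 and -0.24 there (adjusted p = 0.135, 0.0627 and 0.607) and tj at -0.08, -0.62 and -0.68 (adjusted p = 0.849, 0.102 and 0.08). With the length trend removed ttk was called lower against the virgin pair in all 3 knockdowns, at -1.32, -1.59 and -1.07 (adjusted p = 0.000241, 7.63e-05 and 0.000596), and tj in wde GKD (-0.90, adjusted p = 0.0127) and Nup154 GKD (-1.06, adjusted p = 0.00603). ttk was also called lower in wde GKD with upper quartile scaling (-0.90, adjusted p = 0.0446).

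With ribosomal protein scaling 2, 4 and 3 of the 9 genes were called against NGVP16, and in fits of only the 2 sets 2, 5 and 4. Fas3 and cas were among those called in all 3 knockdowns under both. The highest adjusted p under any alternative was 0.0321 for Fas3 and 0.0372 for cas, both in SETDB1 GKD. In SETDB1 GKD with ribosomal protein scaling, the genes that lost their call were at 2.45 for ct, 1.51 for eya, 2.71 for Fas2 and 2.66 for kay. These log2 changes were not smaller, but the scaling also moved the median of all features from 0.11 to 0.45. In fits of only the 2 sets they were 2.32, 1.24, 2.54 and 2.49. The shares of all features called in these fits are not given here, so the numbers called cannot be set beside them. The cause of the lost calls was not tested.

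The 4 young control libraries differed in a way that followed gene length. Across 6984 genes of at least 10 CPM, the log ratio of NGVP16 1 to NGVP16 2 fell with exon length (Spearman's rho = -0.782 across genes, which are not independent), and that of virgin 1 to virgin 2 did too (-0.55). Ribosomal protein genes took 24.7% of the counts in NGVP16 1 and 9.71% in NGVP16 2. Among the 9 genes, NGVP16 2 stood above NGVP16 1 for each. The ratio was 1.20 to 1.47 for tj, cas, eya and Fas3, whose exons span 3151 to 6612 bases, and 1.90 to 2.64 for kay, ttk, Fas2 and ct, whose exons span 7306 to 12443 bases. The exception was slbo, with 2786 bases and a ratio of 5.07 on 5 and 40 counts. In the virgin pair the 9 ratios lay between 0.875 and 1.87.

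**Figure D3:**
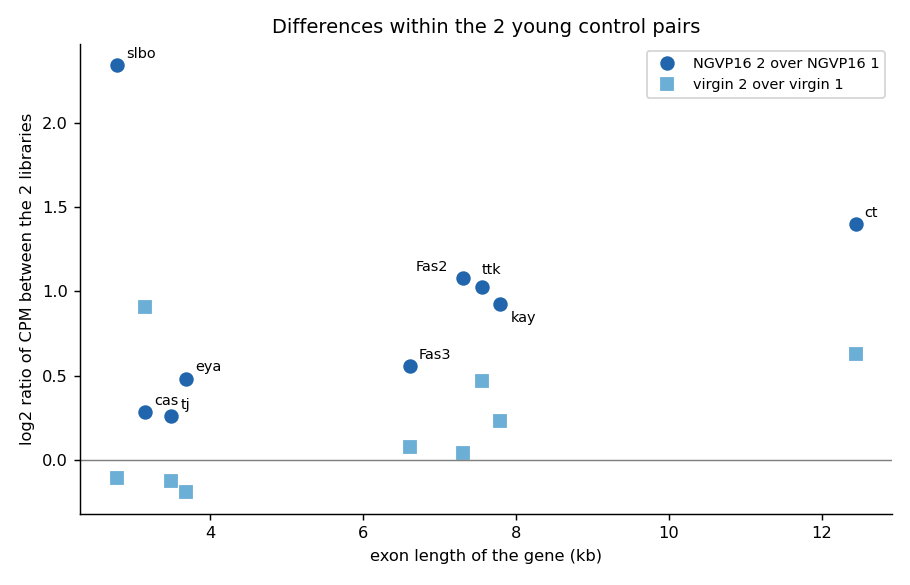
Log2 ratio of CPM between the 2 libraries of each young control pair against the exon length of each of the 9 genes (circles NGVP16 2 over 1, squares virgin 2 over 1). NGVP16 2 is above NGVP16 1 for all 9 genes, by 1.40 on the log2 scale for ct, the longest, and by 2.34 for slbo, which rests on 5 and 40 counts.

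Between the knockdowns none of the 9 genes was called by edgeR, where 0.287% of all features were called in SETDB1 against wde GKD, 3.68% in SETDB1 against Nup154 GKD and 1.42% in wde against Nup154 GKD. By the unadjusted value of the same test, which 13.8%, 22.2% and 18.1% of all features passed at 0.05, 1 gene passed in SETDB1 against wde GKD (slbo), 2 in SETDB1 against Nup154 GKD (cas and slbo) and 2 in wde against Nup154 GKD (Fas3 and cas). The DESeq2 test called 1 value, slbo in SETDB1 against Nup154 GKD, at -2.93 (adjusted p = 0.0327, where edgeR gave 0.131). That test called 6.01% of the features with an adjusted p in SETDB1 against wde GKD, 12.2% in SETDB1 against Nup154 GKD and 9.06% in wde against Nup154 GKD. Fas3 and cas were highest in Nup154 GKD, whose libraries lay above those of the other knockdowns for both genes. Such a lack of overlap, with Nup154 GKD higher, was found for 36.9% of all features against SETDB1 GKD and 34.7% against wde GKD. Fas3 was at -0.59 ± 0.26 in SETDB1 and -0.60 ± 0.26 in wde GKD against Nup154 GKD (adjusted p = 0.23 and 0.275), and cas at -0.84 ± 0.30 and -0.90 ± 0.30 (adjusted p = 0.151 and 0.172). In fits of only the 2 sets compared, Fas3 and cas were called lower in SETDB1 GKD (adjusted p = 0.0356 and 0.0398) and in wde GKD (0.0175 and 0.0142) than in Nup154 GKD, as was ttk in both (0.0468 and 0.0198), slbo in SETDB1 GKD (0.0238) and eya in wde GKD (0.0417), while tj was called higher in SETDB1 GKD (0.0413). The shares of all features called in these 2-set fits are not given here, and the shares above belong to fits of all 5 sets. SETDB1 and wde GKD differed by 0.01 ± 0.26 for Fas3 and 0.05 ± 0.30 for cas.

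Levels can be compared between genes only per length, as CPM per kilobase of exon. On that scale tj was first in both control pairs, at 75.9 ± 9.72 in NGVP16 and 107 ± 6.48 in virgin (SD, n = 2), and ttk second, at 26.7 ± 12.9 and 44.0 ± 9.97. In the knockdowns the adhesion genes led. Fas2 was first in SETDB1 and wde GKD, at 131 ± 5.56 and 126 ± 1.33, and Fas3 was first in Nup154 GKD, at 142 ± 0.588. The order of the sets by CPM also differed between genes. For Fas3 and cas it began with Nup154 GKD, followed by SETDB1 and wde GKD, which overlapped. For ct it began with SETDB1 GKD, followed by Nup154 and wde GKD, which overlapped. For slbo, ttk and tj it began with the virgin pair.

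Other genes of follicle cells were read from lists drawn up with earlier results of these libraries known. Of 13 regulators of prefollicle, polar and stalk cells, 7 (53.8%) were called higher and 0 lower in each knockdown against NGVP16, where 14.6%, 21.3% and 20.8% of all features were higher, with median log2 changes of 1.69, 1.08 and 1.47 beside 0.11, 0.15 and 0.12 over all features. Examples called in all 3 are bowl, a zinc finger gene (2.12 ± 0.27, 2.25 ± 0.27 and 2.29 ± 0.27), fng, which encodes a glycosyltransferase that modifies Notch (2.02 ± 0.21, 1.95 ± 0.21 and 2.41 ± 0.21), and the ligand gene Wnt4 (2.95 ± 0.48, 2.01 ± 0.46 and 1.47 ± 0.46). The gene ptc, also called in all 3, stands on this list and on that of escort and niche cells, so their counts are not separate. The part of escort and niche cells was not tested. Of 16 regulators of main body patterning and the endocycle, 3, 5 and 4 were higher and 1 lower in each, with medians of 0.83, 0.77 and 0.86. The higher members are 18.8%, 31.2% and 25% of the list, near the shares of all features. The homeodomain gene hth (3.41 ± 0.46, 4.04 ± 0.47 and 2.76 ± 0.45) and Dad, an inhibitor of BMP signalling (1.98 ± 0.30, 1.81 ± 0.30 and 1.64 ± 0.30), were the ones called in all 3.

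Of 13 genes of border and centripetal cell migration, 4, 4 and 7 were higher and 0, 0 and 1 lower in SETDB1, wde and Nup154 GKD, with medians of 0.73, 0.88 and 1.28. The higher members are 30.8%, 30.8% and 53.8% of the list, beside the 14.6%, 21.3% and 20.8% of all features. Higher in all 3 were Pvr, a receptor that guides border cells (2.18 ± 0.38, 2.72 ± 0.39 and 3.40 ± 0.40), puc, a phosphatase gene that AP-1 drives in the JNK pathway (1.48 ± 0.28, 1.46 ± 0.28 and 1.77 ± 0.28), and sqh, the myosin light chain gene (1.16 ± 0.26, 0.99 ± 0.25 and 1.66 ± 0.26). Pvr is also a receptor of hemocytes, whose markers were higher in the knockdowns. Of 23 genes of epithelial adhesion and polarity, 7, 6 and 9 were higher and 0 lower, with medians of 0.91, 0.68 and 0.98. That is 30.4%, 26.1% and 39.1% of the list, of which the share in wde GKD is near the 21.3% of all features. The genes higher in all 3 included cora, of septate junctions (2.62 ± 0.44, 2.78 ± 0.44 and 3.57 ± 0.46), the integrin gene if (2.22 ± 0.37, 2.63 ± 0.38 and 2.85 ± 0.38) and the adhesion gene Nrg (2.32 ± 0.39, 2.48 ± 0.40 and 3.31 ± 0.41).

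The genes most like each of the 9 were sought among 6036 named protein-coding genes by the mean absolute difference of log2 CPM over the 10 libraries, each gene centred on its own mean. For Fas2 the nearest were jp, kay and croc (0.13, 0.15 and 0.16), and for ct Fas2, ps and Eip93F (0.18, 0.18 and 0.19). kay was 14th for ct (0.27). The nearest to kay were Prm, fz2 and Fas2 (0.12, 0.14 and 0.15), of which Prm, the paramyosin gene of muscle, is on the muscle sheath list above. For Fas3 they were Nep3, GluRIID and Pkc53E (0.16, 0.16 and 0.20), and for cas Idgf1, Msr-110 and Octbeta2R (0.29 for each), of which Octbeta2R, an octopamine receptor gene, is on the reproductive tract list. For slbo the list held pip, which encodes a sulfotransferase of ventral follicle cells (0.39), Cad99C, a cadherin gene of follicle cells (0.52), and spo, an ecdysone synthesis gene (0.54). Those of eya were sing, CalpA and conv (0.15 each), those of ttk cyst, trr and mib2 (0.08, 0.10 and 0.11), and those of tj MESR6, Cul2 and Mad1 (0.09, 0.11 and 0.12). Among the 9 genes, Fas3 was 0.36 from Fas2, 0.39 from kay and 0.47 from both ct and cas. The early gene eya was 1.03 from Fas3 and 1.02 from cas, and slbo was at least 0.87 from every other.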

How the data were processed

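Poly(A) mRNA of Drosophila ovaries was sequenced in 12 libraries, of which the 10 of the 3 germline knockdowns and the 2 young control pairs were used. The authors deposited raw counts per FlyBase gene, 1 file per library, with no normalization. HISAT2 2.1.0, featureCounts 1.4.6, DESeq2 1.24.0 and the build dm6 are named per the submitters' processing notes. The role of each tool, the annotation and the strand setting are not stated there. No exon of the 9 genes overlaps another gene on either strand in Ensembl release 115 of BDGP6, which has the coordinates of dm6 and named 16647 of the 17023 features.

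Counts were filtered with filterByExpr, scaled by TMM and fitted with edgeR 4.0.16 in R 4.3.3 by its quasi-likelihood F test (robust, 1 mean per set), with 5 residual degrees of freedom. P-values were adjusted by Benjamini-Hochberg over 10105 features. The common biological coefficient of variation was 0.387. The SE is the absolute log2 fold change over the square root of F. Control choice, scaling, filter, samples in the fit, length trend, replicate block and test (DESeq2 1.42.0) were varied, and each library was left out in turn. The scalings, length trend and left-out libraries run with the virgin pair as control were added after seeing the data. The script was tested on simulated data. Of 200 genes given a log2 change of 2 in SETDB1 GKD against NGVP16, 49.5% were recovered, with 5 false calls. A change of that size can thus go uncalled. The simulation changed 200 of 9809 genes, while the data gave 14.6% of all features called higher and 9.51% lower in that comparison. The adjustment of p-values depends on that share, so 49.5% is not the recovery in the tests above.

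The 9 genes and all lists were chosen with earlier results of these data known. From each list up to 3 genes are named, those called in 1 direction in all 3 knockdowns against NGVP16 with the largest median change, and for each of the 9 genes the 3 named protein-coding genes of nearest pattern. Of the listed genes 14 could not be matched by symbol and are not analysed here. Replicate differences correlated at 0.396 between SETDB1 and wde GKD and at -0.179 to 0.0159 between the other numbered sets, so the replicate numbers were not taken to pair libraries. No pair of libraries agreed within sampling noise. Totals of 7351948 to 20162235 counts give the precision, and intervals cover counting error only.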

Additional observations from a re-analysis of the deposited data

How the results depend on the processing

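Of 19 called values, none turned in 264 alternatives, 235 stayed called and 29 were no longer called. Of the 44 values not called, 51 of 572 alternatives turned the sign and 21 gave a call. A lone library left in a set is assumed to vary like the other sets. The number of the 9 genes called was 2 in SETDB1 GKD and 3 in Nup154 GKD against NGVP16 with ribosomal protein scaling, and 2 in SETDB1 GKD in a fit of only the 2 sets. That scaling moved the median of all genes to 0.45, 0.76 and 0.31. In SETDB1 against Nup154 GKD it was 5 in the fit of only the 2 sets and 1 with DESeq2, and in wde against Nup154 GKD 4 in the former. In virgin against NGVP16 it was 0 with ribosomal protein scaling, 2 with the length trend removed, 0 with only the 2 sets, and 0 to 3 with 1 library left out. Early minus later genes gave 3.60, 2.69 and 3.02 with the virgin pair, and with 1 library left out 1.42 to 2.56 in SETDB1 GKD, 0.51 to 1.91 in wde GKD and 0.84 to 1.98 in Nup154 GKD. slbo did not pass the filter in the fit of SETDB1 GKD and NGVP16 alone, so this difference has no value there. With the replicate block, 6, 5 and 6 genes were called against NGVP16 and 0 between knockdowns; eya in wde GKD was at 0.69 (adjusted p = 0.101), and ct in wde against Nup154 GKD was at 0.035. Except for the virgin pair as control and the DESeq2 test between knockdowns, the shares of all features called under the alternatives are not given here. The cause of these changes was not tested.

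All values that turned were uncalled at first. With ribosomal protein scaling, in SETDB1 against wde GKD cas was at -0.27, ttk at -0.10, Fas2 at -0.23 and Fas3 at -0.26. In wde against Nup154 GKD slbo was at 0.012 and ct at 0.41, against NGVP16 ttk was at 0.24 and tj at 0.42 in wde GKD and ttk at 0.14 in SETDB1 GKD, and in virgin against NGVP16 Fas3 was at -0.19. With DESeq2 size factors and with the DESeq2 test ct was at 0.061 in wde against Nup154 GKD and Fas3 at -0.018 in SETDB1 against wde GKD. With all 12 libraries kay was at -0.019 in wde against Nup154 GKD. With the length trend removed Fas3 was at -0.084 in virgin against NGVP16, ct at 0.15 in wde and kay at 0.12 in SETDB1 against Nup154 GKD, and ttk at -0.48 in Nup154 GKD against NGVP16. With upper quartile scaling Fas3 was at -0.024 in virgin against NGVP16, kay at 0.036 in SETDB1 and ct at 0.028 in wde against Nup154 GKD. In wde against Nup154 GKD ct was at 0.042 with no filter and at 0.034 with only the 2 sets. With the virgin pair ttk was at -0.24 and slbo at -1.08 in Nup154 GKD, slbo at -1.37 in wde GKD and tj at -0.076 in SETDB1 GKD.

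With 1 library left out, the values against NGVP16 ran from -0.50 to 0.61 for ttk in SETDB1 GKD. In wde GKD they ran from -0.89 to 2.48 for slbo, -0.45 to 0.15 for tj and -0.73 to 0.42 for ttk, and in Nup154 GKD from -0.10 to 1.09 for ttk. In SETDB1 against wde GKD they ran from -0.14 to 0.26 for cas and -0.075 to 0.14 for Fas3, and in SETDB1 against Nup154 GKD from -0.058 to 0.13 for eya and -0.23 to 0.024 for kay. In wde against Nup154 GKD they ran from -0.11 to 0.093 for ct, -0.030 to 0.080 for kay, -2.04 to 0.48 for slbo and -0.27 to 0.33 for tj. In virgin against NGVP16 they ran from -1.48 to 0.0018 for ct, -1.003 to 0.15 for Fas2, -0.20 to 0.43 for Fas3 and -0.55 to 0.45 for kay.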

Other observations

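The adult control pair, left out of the comparisons, held 471770 and 682565 counts. The 9 genes summed to 6 and 8 counts there, where the share they took in the young control library with the lowest one would give 312 and 452. tj was at 0 counts in both, against 110 and 159 at its own lowest young control share, and Fas3 was at 0 in both, against 22.1 and 32.0 by the same measure. ttk had 4 counts in each adult library. A count of 0 allows up to 3 counts, which is 6.36 and 4.40 per 1e6 counts in the 2 libraries.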
